A study of Mus musculus with 12 samples.

Results

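Notch signalling genes were followed through 4 stable derivatives of ImPSC-1, a line of mouse pancreatic stellate cells, the mesenchymal cells of the pancreas that lay down collagen when activated. The set was 9 genes taken by name from the table of 49671 genes: the receptor genes Notch1, Notch2 and Notch3, the ligand genes Jag1 and Jag2, and the target genes Hes1, Hey1, Hey2 and Heyl. The 4 groups, of 3 polyA-selected libraries each, were cells overexpressing Kitl (Kitl OE), cells overexpressing Egfp as their control (Egfp OE), cells with a hairpin against Kitl (shKitl) and cells with a control hairpin (shCtrl). All derive from a wild-type genotype and grew in DMEM with serum, and all 4 lines carry an introduced construct. The protein made from Kitl is the KIT ligand, also called stem cell factor. The sources used here do not give the promoter of the overexpression constructs or whether a line is 1 clone or a pool. Nothing in the labels ties the 3 libraries of a group to separate cultures. Their p-values therefore cover only the spread between libraries, which may be technical. Each description carries a P number, whose meaning the labels do not give: 18, 19 and 20 in Kitl OE, 17, 18 and 19 in Egfp OE, 13, 14 and 15 in shKitl, and 14, 15 and 16 in shCtrl.

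Notch receptors are membrane proteins that are cleaved when a Jagged or Delta-like ligand on a neighbouring cell pulls on them. ADAM10 and then the gamma-secretase complex release the intracellular part, which enters the nucleus, joins the DNA-binding protein RBPJ and Mastermind coactivators, and switches on genes of the HES and HEY families of transcriptional repressors. In mesenchymal tissue the pathway is best known from the cells that wrap blood vessels, where NOTCH3 is the characteristic receptor, Jagged1 on neighbouring cells is a main ligand and HEYL is a known target.

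Counts in genes came to between 24979742 and 33517686 per library, and 8 of the 9 genes passed the filter on low counts, which kept 15271 genes. The targeted gene Kitl had 125, 114 and 128 CPM (reads of a gene scaled to a common library size) in Kitl OE cells, against 72.4, 31.8 and 72.2 CPM in Egfp OE cells, a log2 fold change of 1.06 (adjusted p = 0.00836 in edgeR's quasi-likelihood test, and 0.242 with spike-in scaling). The low value of 31.8 CPM came from Egfp OE replicate 2, and over 24 alternative settings the log2 fold change ran from 0.77 to 1.34. Kitl had 25.1, 25.5 and 30.3 CPM in shKitl cells, against 73.4, 73.5 and 76.3 CPM in shCtrl cells, a log2 fold change of -1.46. These groups did not overlap, and the difference did not pass (adjusted p = 0.121) but did in DESeq2 (0.000128) and without shKitl replicate 3 (0.0397) or Egfp OE replicate 2 (0.000725). Egfp OE replicate 2 stood apart from the other libraries: spike-in RNA took 1.35% of its counts, against 0.446% to 0.684% in the other 11. It also differed from Egfp OE replicates 1 and 3. Relative to the means of those replicates, its 1524 longest genes lay at a median log2 of -0.65 and its 1530 shortest at 0.45. The receptor genes are long, with exons covering 14232 bases for Notch1, 10782 for Notch2 and 8089 for Notch3, and Hes1 is short at 2037, so values of these genes are given with and without that library. The summed level of 8 mesenchymal markers, most of it from Col1a1, Col1a2, Vim and Acta2, was 20679 to 24018 CPM in Kitl OE, 5004 to 6511 in Egfp OE, 7450 to 18114 in shKitl and 5438 to 7106 in shCtrl cells. Not all of the 8 were high in every line, with Des at a mean of 1.03 CPM in shCtrl cells. Epcam of epithelium and Ptprc of blood cells were at 0 to 0.440 CPM, within summed levels of 2.04 to 11.97 CPM for 7 epithelial and 1.17 to 3.35 CPM for 5 blood markers. As bulk libraries, they do not tell fewer cells that express a gene from less RNA of it per cell.

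Notch2 was the main receptor transcript in every library. On the TPM scale of the authors, which divides by gene length and so allows levels of different genes to be compared, Notch2 made up 83.4% to 87.8% of the summed Notch1 to Notch4 TPM in Kitl OE cells, 78.8% to 82.6% in Egfp OE cells, 54.6% to 81.3% in shKitl cells and 72.0% to 89.3% in shCtrl cells. Notch3 was next in each of the 12 libraries, with 6.60% to 37.2%, and Notch1 followed, with 3.42% to 7.64%. Notch4, a receptor of endothelium, averaged at most 0.344 TPM in a group. Among ligands Jag1 led everywhere, with 94.5% to 96.8% of the summed Jagged and Delta-like TPM in Kitl OE cells, 66.9% to 79.6% in Egfp OE cells, 60.4% to 82.8% in shKitl cells and 63.3% to 81.7% in shCtrl cells. The cells thus held transcripts of both sides of the pathway, mainly Notch2 and Jag1.

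**Figure D1:**
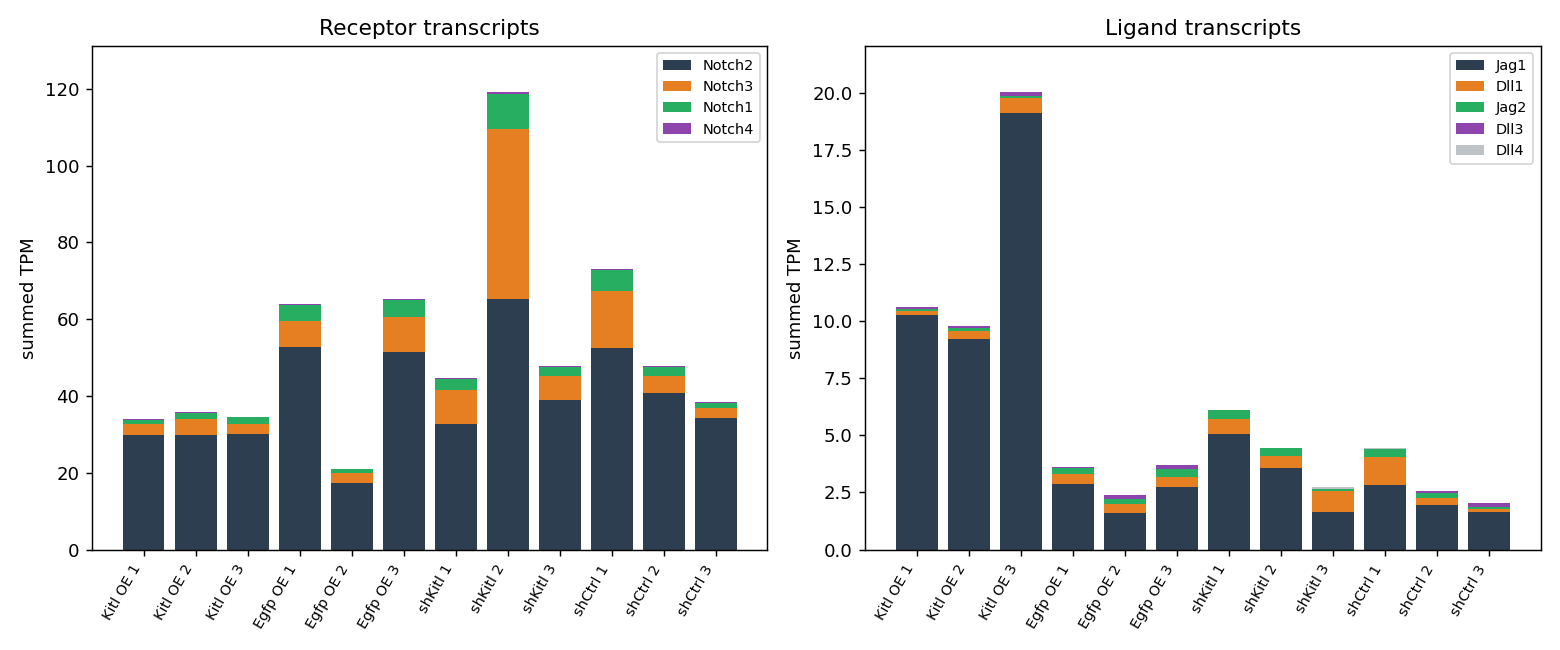
Receptor (left) and ligand (right) transcripts in each of the 12 libraries, as stacked bars of the authors' TPM values, with 1 bar per library and 1 colour per gene. Notch2 fills most of every receptor bar, shKitl replicate 2 has the tallest receptor bar at 119 TPM, and the Kitl OE ligand bars, between 9.77 and 20.04 TPM and almost all Jag1, stand above all others.

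Promoter sequences are shown for Jag1, the ligand gene that was higher in Kitl OE cells, for Notch3, which varied between libraries of the hairpin lines, and for Hey2, the only one with a match to the site of RBPJ, the DNA-binding protein of the pathway. They come from RefSeq promoters on GRCm38.p6, which had entries for 6 of the 9 genes and none for Hes1, Hey1 and Heyl. Each sequence is the part of the 250 bases before the RefSeq start that lies upstream of the GENCODE gene, 5′ to 3′ on the gene's own strand, which is the minus strand of the build for all 3.
Jag1, chr2:137116645-137116770: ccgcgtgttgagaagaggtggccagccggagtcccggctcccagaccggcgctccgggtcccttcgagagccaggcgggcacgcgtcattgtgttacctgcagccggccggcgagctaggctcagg
Notch3, chr17:32166891-32167140: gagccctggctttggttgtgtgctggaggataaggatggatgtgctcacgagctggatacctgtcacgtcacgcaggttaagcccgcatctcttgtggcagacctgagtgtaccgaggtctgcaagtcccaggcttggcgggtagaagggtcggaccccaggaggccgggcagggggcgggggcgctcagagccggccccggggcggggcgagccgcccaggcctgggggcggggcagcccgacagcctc
Hey2, chr10:30842802-30843033: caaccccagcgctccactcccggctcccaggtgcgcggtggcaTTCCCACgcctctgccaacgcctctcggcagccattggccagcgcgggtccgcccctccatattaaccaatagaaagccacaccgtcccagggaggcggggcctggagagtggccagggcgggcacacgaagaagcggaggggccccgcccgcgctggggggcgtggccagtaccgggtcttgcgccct
Capitals mark the match to GTGGGAA, which lies on the opposite strand and therefore reads TTCCCAC, with its first base 207 bases upstream of the start. The letters searched on both strands over the full 250 bases were TGGGAA, its extension GTGGGAA, which contains the first, and CACGTG, an E box that HEY proteins can bind. Of 32851 promoters, 21.59% held TGGGAA, 5.415% GTGGGAA and 6.021% CACGTG. Hey2 held 1 match to GTGGGAA and so to TGGGAA. The other 5 promoters, those of Notch1, Notch2, Notch3, Jag1 and Jag2, held none of the 3 in this window. A match is a description of letters, not of binding.

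Jag1, the gene of the ligand Jagged1 (ENSMUSG00000027276, minus strand of chromosome 2, 137081456 to 137116644, GRCm38 and protein-coding, as for all genes given here), was higher in Kitl OE cells. It stood at 22.2, 18.4 and 37.0 CPM in the Kitl OE libraries, against 5.55, 4.12 and 4.80 CPM in the Egfp OE libraries. All 3 Kitl OE libraries lay above the other 9 libraries of the study, where the highest was 10.5 CPM in shKitl replicate 1. Group means were 25.9 ± 9.85 CPM in Kitl OE and 4.82 ± 0.713 CPM in Egfp OE cells (SD, n = 3 each). Jag1 was thus 5.35-fold higher, with a log2 fold change of 2.42 (SE 0.41) and an adjusted p of 0.00111 in edgeR's quasi-likelihood test. All 24 alternative settings kept the call, at log2 values of 1.98 to 2.65 and adjusted p-values of 2.35e-08 to 0.00564. On the TPM scale Jag1 came to 0.309 to 0.633 of the Notch2 level in the Kitl OE libraries and 0.0531 to 0.0932 of it in the Egfp OE libraries.

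Marker lists of several cell types also differed between Kitl OE and Egfp OE cells. Summed levels of 6 endothelial markers were 22.4 to 26.6 CPM in Kitl OE cells and 3.79 to 5.55 CPM in Egfp OE cells, mostly from Kdr, the VEGF receptor gene, which averaged 23.2 CPM in Kitl OE and 3.60 CPM in Egfp OE cells. The defining endothelial genes were near 0 in both groups: Pecam1 averaged 0.159 CPM in Kitl OE and 0.165 CPM in Egfp OE cells, Cdh5 0.0227 CPM in Kitl OE and 0.190 CPM in Egfp OE cells, and Tie1 and Emcn at most 0.0243 CPM in either. Summed levels of 6 mesothelial markers were 162 to 260 CPM in Kitl OE cells and 12.01 to 21.5 CPM in Egfp OE cells. They were 102 to 136 CPM in shKitl and 67.9 to 101 CPM in shCtrl cells, so Egfp OE was the lowest line. Upk3b averaged 147 CPM in Kitl OE and 0.252 CPM in Egfp OE cells. Msln averaged 36.8 CPM in Kitl OE, 13.5 in Egfp OE, 86.8 in shKitl and 82.4 in shCtrl cells. It was 6.10-fold lower in Egfp OE than in shCtrl cells (adjusted p = 0.0172, edgeR). Of that list, Wt1 averaged 0.244 CPM in Kitl OE and 0.142 CPM in Egfp OE cells, and Lrrn4 at most 0.0594 CPM in either. Of 8 markers of the contractile cells of vessel walls, 4 rose and 2 fell in Kitl OE against Egfp OE cells (edgeR, adjusted p under 0.05). Their summed level was 2356 to 4449 CPM in Kitl OE and 270.1 to 442 CPM in Egfp OE cells. Most of the Kitl OE sum was Acta2, at 1882 to 3823 CPM in Kitl OE and 89.6 to 215 CPM in Egfp OE cells. Genes of smooth muscle contraction were higher: Acta2 18.7-fold, Cnn1 28.8-fold, Myh11 15.1-fold and Tagln 10.0-fold. The pericyte genes Rgs5 and Cspg4 were 11.6-fold and 7.31-fold lower. Of the 8 mesenchymal markers, which share Acta2, Pdgfrb and Des with that list, Col1a1, Col1a2, Vim and Acta2 rose. Pdgfra, a fibroblast receptor gene, averaged 15.2 CPM in Kitl OE and 195 CPM in Egfp OE cells and was 12.8-fold lower (adjusted p = 0.000412), and Pdgfrb, Des and Col3a1 did not pass. The part of these markers in the Jag1 difference was not tested.

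Of the 8 tested genes, 2 passed an adjusted p of 0.05 in Kitl OE against Egfp OE cells, Jag1 and Hey1, both higher. Among all 15271 tested genes 34.3% passed, 15.4% higher and 18.9% lower, so the count does not set the Notch genes apart from other genes. Their median log2 fold change was -0.12, beside -0.07 over all tested genes. The groups did not overlap for Jag1, Hey1 and Jag2, 37.5% of the 8, beside 50.5% of all tested genes.

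**Figure D2:**
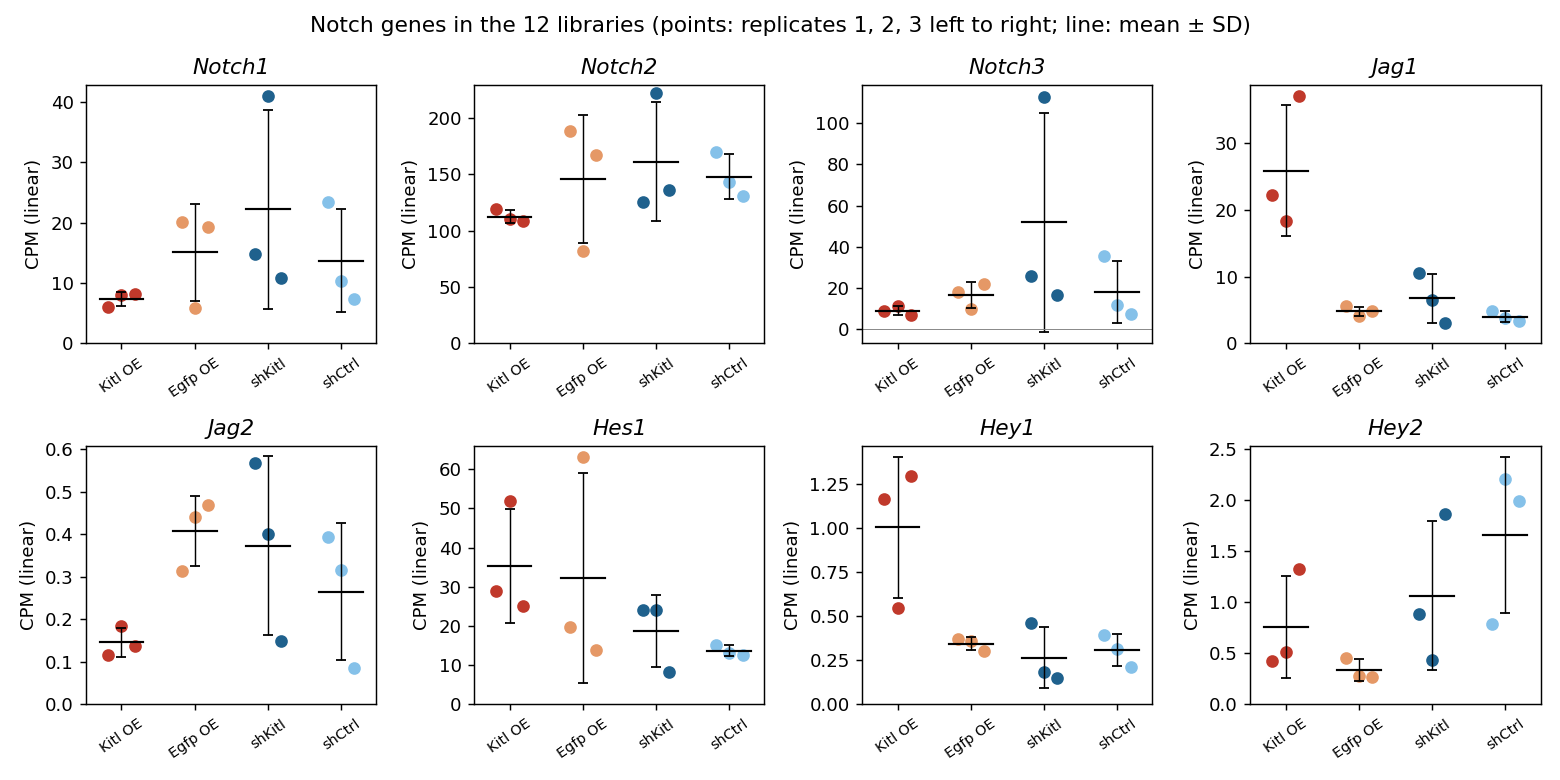
CPM of the 8 tested Notch genes in each library on linear axes, in panels by gene. Points are replicates 1, 2 and 3 from left to right, and lines and whiskers are the mean and SD of 3 libraries. The Kitl OE points clear all others for Jag1 and Hey1, Notch3 has 1 shKitl library at 113 CPM, and the groups overlap in most other panels.

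Hey1, a HEY-family repressor gene and direct Notch target (ENSMUSG00000040289, minus strand of chromosome 3, 8663359 to 8667256), was the second gene that rose, from a low level. It had 30, 15 and 38 reads in the Kitl OE libraries and 13, 9 and 9 in the Egfp OE libraries. In CPM these were 1.17, 0.549 and 1.30 in Kitl OE cells, against 0.372, 0.360 and 0.302 in Egfp OE cells, and no library of another group reached the lowest Kitl OE value. The difference was 2.89-fold (log2 1.53, SE 0.48, adjusted p = 0.0290, edgeR). The Hey1 call ended without Egfp OE replicate 1 (log2 1.60, adjusted p = 0.0612), Egfp OE replicate 3 (1.45, 0.0792), Kitl OE replicate 1 (1.43, 0.0892) or Kitl OE replicate 3 (1.33, 0.0992). It also ended when libraries were scaled by spike-ins (1.65, 0.0659) or matched by P number (1.31, 0.167), and the lowest adjusted p of its 23 alternatives was 0.0193.

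The other targets did not pass the test. Hes1, a repressor gene that Notch and several other signals induce (ENSMUSG00000022528, plus strand of chromosome 16, 30064384 to 30067796), stood at 28.9, 51.8 and 25.01 CPM in Kitl OE cells and 19.8, 63.1 and 13.9 CPM in Egfp OE cells. The wide Egfp OE range came from replicate 2, and the log2 fold change of 0.13 (SE 0.54, adjusted p = 0.874, edgeR) became 1.08 (adjusted p = 0.0765) without that library. It was -0.12 without Egfp OE replicate 1, -0.23 without Egfp OE replicate 3 and -0.24 without Kitl OE replicate 2, so the direction rested on single libraries. Hey2, a second HEY gene (ENSMUSG00000019789, minus strand of chromosome 10, 30832359 to 30842801), had 0.428, 0.513 and 1.33 CPM in Kitl OE cells and 0.458, 0.280 and 0.268 CPM in Egfp OE cells (log2 1.16, SE 0.65, adjusted p = 0.189, edgeR). Heyl (ENSMUSG00000032744, plus strand of chromosome 4, 123233556 to 123249875), the target tied to NOTCH3 in vessel wall cells, had 1 read in Kitl OE replicate 3 and none in the other 11 libraries. A count of 0 allows a Heyl level of up to 0.0858 to 0.127 CPM, depending on the library, by counting error alone. Nrarp, a Notch-induced feedback inhibitor of the pathway, was as low, with 0 to 2 reads per library, and was not tested.

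Receptor genes were lower on average in Kitl OE cells without passing the test. Notch1 (ENSMUSG00000026923, minus strand of chromosome 2, 26457903 to 26516663) had 6.11, 7.98 and 8.16 CPM in Kitl OE cells and 20.1, 5.85 and 19.3 CPM in Egfp OE cells. Notch2 (ENSMUSG00000027878, plus strand of chromosome 3, 98013527 to 98150361) had 119, 110 and 108 CPM in Kitl OE cells and 188, 81.8 and 167 CPM in Egfp OE cells. Notch3 (ENSMUSG00000038146, minus strand of chromosome 17, 32120820 to 32166852) had 8.63, 11.3 and 7.17 CPM in Kitl OE cells and 17.9, 9.73 and 22.1 CPM in Egfp OE cells. Each time Egfp OE replicate 2 fell within or below the Kitl OE range and the other Egfp OE libraries lay above it. The log2 fold changes were -1.02 for Notch1 (SE 0.59, adjusted p = 0.198), -0.38 for Notch2 (SE 0.29, adjusted p = 0.343) and -0.88 for Notch3 (SE 0.70, adjusted p = 0.360) in edgeR. Without Egfp OE replicate 2 they were -1.39 for Notch1 (adjusted p = 0.0709), -0.65 for Notch2 (adjusted p = 0.0273, past the threshold) and -1.13 for Notch3 (adjusted p = 0.283). In GENCODE M21, exons of Notch1 share 414 bases with Gm13568 and 1068 with 0610009E02Rik on the opposite strand, those of Notch3 share 488 with Gm17276 on the opposite strand, and those of Notch2 share 541 with Gm42820 on the same strand, so reads there may belong to either gene.

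Jag2, the other Jagged ligand gene (ENSMUSG00000002799, minus strand of chromosome 12, 112907819 to 112929776), stood at a much lower level, with 0.117, 0.183 and 0.136 CPM in Kitl OE cells and 0.315, 0.440 and 0.470 CPM in Egfp OE cells. The groups did not overlap, on 12 reads in all in Kitl OE and 36 in Egfp OE cells, but the difference did not pass the test (log2 -1.45, SE 0.61, adjusted p = 0.0845, edgeR). An exact two-sided permutation test of 3 against 3 libraries gave p = 0.1 for Jag1, Hey1 and Jag2, the smallest it can give.

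**Figure D3:**
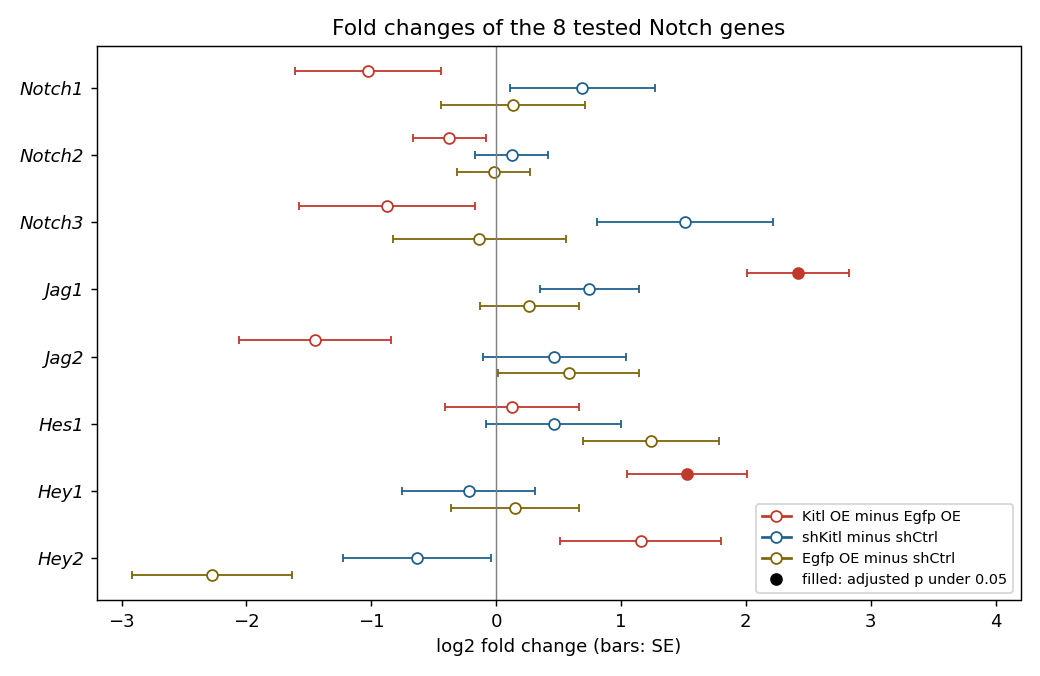
Log2 fold changes (horizontal axis, bars are SE) of the 8 tested Notch genes in 3 comparisons of 3 against 3 libraries, with filled points for an adjusted p under 0.05. Only Jag1 at 2.42 and Hey1 at 1.53, both in Kitl OE minus Egfp OE, are filled.

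The knockdown comparison asked what less Kitl does in the same cells. None of the 8 Notch genes passed in shKitl against shCtrl cells, nor did any of the 15271 genes (0%) in edgeR. At an unadjusted p under 0.05 there were 0 Notch genes and 2417 genes in all, and DESeq2 called 0 Notch genes and 428 in all. No Notch gene had groups free of overlap, beside 19.7% of all tested genes, and the members' median log2 fold change was 0.46, beside 0.05 over all tested genes. Jag1 had 10.5, 6.56 and 3.10 CPM in shKitl cells and 4.90, 3.74 and 3.39 CPM in shCtrl cells (log2 0.75, SE 0.40, adjusted p = 0.373). Hes1 had 24.1, 24.1 and 8.18 CPM in shKitl cells and 15.2, 13.1 and 12.6 CPM in shCtrl cells (log2 0.46, SE 0.54, adjusted p = 0.702). The groups overlapped in both genes. Hey1 had 0.149 to 0.462 CPM in shKitl cells and 0.212 to 0.395 CPM in shCtrl cells (log2 -0.22), and Hey2 had 0.438 to 1.87 CPM in shKitl cells and 0.789 to 2.21 CPM in shCtrl cells (log2 -0.64). Jag2 reached at most 0.568 CPM in these 6 libraries (log2 0.46, adjusted p = 0.718).

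Of the 8, Notch3 and Notch1 varied most within the hairpin lines, relative to their means. Notch3 had 26.1, 113 and 16.6 CPM in shKitl cells and 35.4, 11.97 and 7.20 CPM in shCtrl cells. Notch1 had 14.8, 41.0 and 10.8 CPM in shKitl cells and 23.4, 10.4 and 7.29 CPM in shCtrl cells. In both genes, and in Notch2 at 222 CPM in shKitl and 170 CPM in shCtrl, the highest library of each line was the one with P number 14. In that shKitl library, replicate 2, the longest genes lay at a median log2 of 0.22 relative to the other shKitl libraries, and the shortest at -0.082. In shCtrl replicate 1, of the same P number, these medians were 0.022 and -0.0022. The part of gene length in the receptor values was not tested. At P number 14 Notch3 was 3.19 times as high in shKitl as in shCtrl, and at 15 it was 1.39 times as high. The same ratios were 1.75 and 1.03 for Notch1 and 1.31 and 0.947 for Notch2. The log2 fold change of Notch3 in shKitl against shCtrl was 1.51 (SE 0.70, adjusted p = 0.323, edgeR), 0.23 without shKitl replicate 2 and 2.43 without shCtrl replicate 1. That of Notch1 was 0.69 (SE 0.58, adjusted p = 0.572), -0.10 without shKitl replicate 2 and 1.32 without shCtrl replicate 1. What the P number stands for was not tested.

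**Figure D4:**
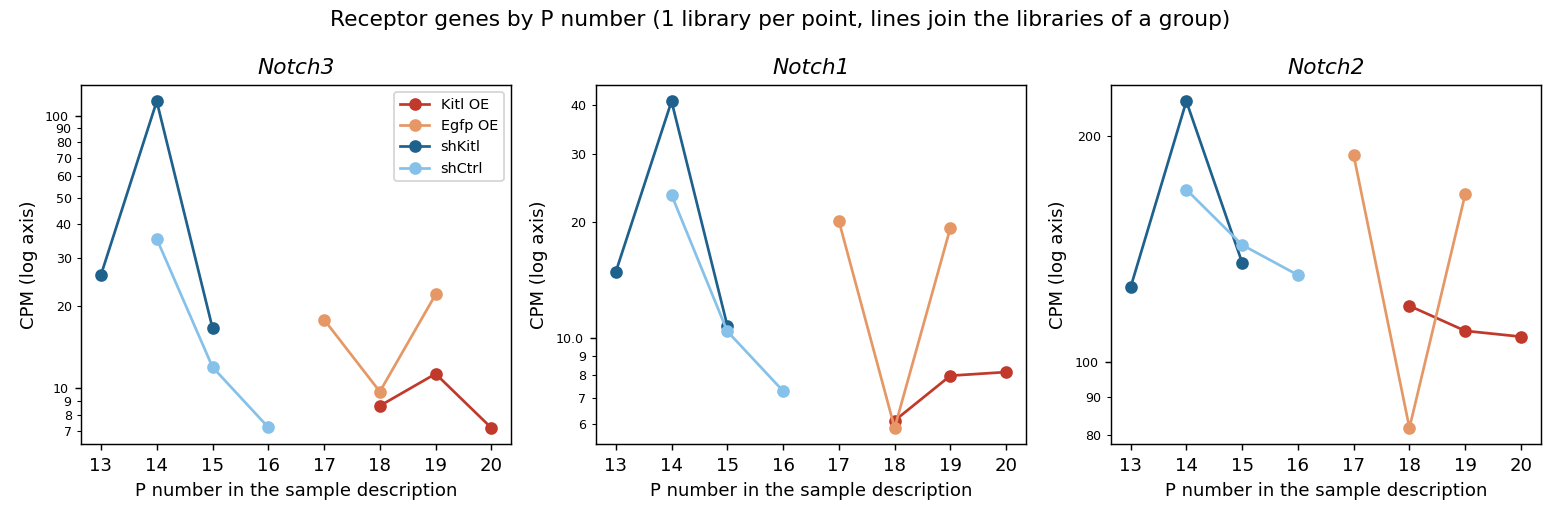
CPM (log axis) of Notch3, Notch1 and Notch2 against the P number of each library, with 1 colour and line per group. Both hairpin lines are highest at P number 14 in all 3 panels, where Notch3 is at 113 CPM in shKitl and 35.4 CPM in shCtrl, and Egfp OE dips at 18.

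The difference between the effect of overexpression and that of knockdown passed for none of the 8 Notch genes, beside 14% of all tested genes, 4.07% higher and 9.88% lower. At an unadjusted p under 0.05 there were 4 of the 8 Notch genes and 4408 of the 15271 genes in all. For Jag1 the difference was a log2 of 1.67 (SE 0.56, adjusted p = 0.0682, edgeR), past the threshold in 4 of 23 alternatives, among them DESeq2 (adjusted p = 0.0185) and the fit without shKitl replicate 1 (2.18, adjusted p = 0.0207). That library held the highest Jag1 level outside Kitl OE cells. For Notch3 it was -2.39 (SE 0.99, adjusted p = 0.135), -3.30 without shCtrl replicate 1 (adjusted p = 0.0397) and -1.10 without shKitl replicate 2 (adjusted p = 0.399). For Hey1 it was 1.75 (SE 0.72, adjusted p = 0.128), and 2.44 without shKitl replicate 1 (adjusted p = 0.0467), the only one of 22 alternatives in which it passed. Jag2 stood at -1.92 (SE 0.83, adjusted p = 0.153).

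Egfp OE and shCtrl, both controls, were compared to see how far the lines differ without a change aimed at Kitl. This comparison shares the Egfp OE libraries with the overexpression comparison and the shCtrl libraries with the knockdown. None of the 8 Notch genes passed in Egfp OE against shCtrl cells, where 1.25% of all tested genes did, 0.511% higher and 0.74% lower. At an unadjusted p under 0.05 there were 2 of the 8, beside 3721 of the 15271 genes in all. Hey2 came closest, at 0.458, 0.280 and 0.268 CPM in Egfp OE cells, against 0.789, 2.21 and 1.99 CPM in shCtrl cells, from 31 reads in Egfp OE and 127 in shCtrl cells. The 2 groups did not overlap for Hey2 alone, 12.5% of the 8, beside 28.5% of all tested genes. Hey2 was 4.83-fold lower in Egfp OE cells (log2 -2.27, SE 0.64, adjusted p = 0.0888, edgeR), and it passed in DESeq2 (adjusted p = 0.0121), with all genes of any count (0.0496) and without shCtrl replicate 1 (log2 -2.62, 0.0453). Hes1 had a log2 fold change of 1.24 (SE 0.55, adjusted p = 0.195), which was 0.31 without Egfp OE replicate 2. The other 6 tested genes had log2 fold changes between -0.14 for Notch3 and 0.58 for Jag2.

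Over all 4 groups, the order of mean levels was clear only at the top for Jag1 and Hey1. Jag1 averaged 25.9 CPM in Kitl OE, 6.74 in shKitl, 4.82 in Egfp OE and 4.01 in shCtrl cells, and Hey1 1.00 in Kitl OE, 0.264 in shKitl, 0.345 in Egfp OE and 0.307 in shCtrl cells. For each of these genes the gap below Kitl OE was free of overlap and the later neighbours in the order overlapped. Kitl OE had the lowest mean for Notch1, Notch2, Notch3 and Jag2 and the highest for Hes1, shKitl the highest for the 3 receptor genes, Egfp OE the highest for Jag2 and the lowest for Hey2, and shCtrl the highest for Hey2. For these 6 genes every pair of neighbouring groups overlapped. Notch2 had group means of 112 CPM in Kitl OE, 161 in shKitl, 146 in Egfp OE and 148 in shCtrl cells.

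A list of 54 further pathway genes was read beside the 9, and 46 of them passed the count filter. In Kitl OE against Egfp OE cells 13 of the 46 passed in edgeR, 7 higher and 6 lower, with a median log2 fold change of 0.04, beside the 34.3% and -0.07 of all tested genes. By role, 2 of 9 genes of receptor cleavage rose and none fell, 3 of 16 nuclear cofactors rose and 3 fell, 2 of 11 ubiquitin ligase and trafficking genes rose and 1 fell, and both non-canonical ligand genes fell. None of the 4 tested glycosylation genes, Notch4, Dll1 or the 2 tested HES genes passed.

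On the ligand side, Neurl1b, a ubiquitin ligase gene that acts on ligand uptake in the signal-sending cell, also rose. It had 7.93, 6.88 and 7.13 CPM in Kitl OE cells and 1.74, 0.480 and 1.11 CPM in Egfp OE cells. Neurl1b was 6.50-fold higher (log2 2.70, SE 0.57, adjusted p = 0.00417, edgeR), and all 24 alternatives kept the call. Mib2, another ligase of ligand uptake, stood at 38.0 to 47.4 CPM in Kitl OE cells and 21.8 to 26.5 CPM in Egfp OE cells (log2 0.80, adjusted p = 0.0172), a call that ended without Egfp OE replicate 1 (0.72) or Kitl OE replicate 2 (0.73). Their relatives Mib1 and Neurl1a did not pass in edgeR. Mib1 averaged 188 CPM in Kitl OE and 153 CPM in Egfp OE cells (log2 0.29, adjusted p = 0.306). Neurl1a averaged 4.03 CPM in Kitl OE and 7.52 CPM in Egfp OE cells (log2 -0.90, adjusted p = 0.214). Dlk1, a Delta-like membrane protein gene without the domain by which canonical ligands bind Notch, and its relative Dlk2 were the list's largest decreases. Dlk1 had 2.10, 2.09 and 2.29 CPM in Kitl OE cells and 293, 492 and 667 CPM in Egfp OE cells, with a log2 fold change of -7.81, and Dlk2 had 0.506, 0.220 and 0.717 CPM in Kitl OE cells and 2.89, 5.01 and 7.35 CPM in Egfp OE cells, with -3.38 (adjusted p = 0.000666). Among canonical Delta-like genes, Dll1 had 0.233 to 0.921 CPM in Kitl OE cells and 0.537 to 0.681 CPM in Egfp OE cells (log2 -0.17, adjusted p = 0.870), and Dll4 had 0 to 2 reads per library.

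In the receptor-bearing cell, Psen2, which encodes a catalytic subunit of gamma-secretase, rose in Kitl OE cells. It had 19.02, 22.6 and 14.3 CPM in Kitl OE cells and 6.75, 9.33 and 7.28 CPM in Egfp OE cells (log2 1.26, SE 0.25, adjusted p = 0.00277). The Groucho-type corepressor genes of the TLE family, partners of HES proteins, did not move together: Tle1 fell, Tle3 and Tle4 rose and Tle2 did not pass. Tle3 had a log2 fold change of 0.62 (adjusted p = 0.0201, edgeR), a call that ended in 7 of 24 alternatives. Tle1 had 44.3, 43.7 and 46.4 CPM in Kitl OE cells and 112, 108 and 147 CPM in Egfp OE cells (log2 -1.45, SE 0.17, adjusted p = 0.000120), and Tle4 had 27.3, 26.0 and 27.5 CPM in Kitl OE cells and 14.5, 11.1 and 11.5 CPM in Egfp OE cells (1.12, SE 0.24, adjusted p = 0.00455). Kat2b, an acetyltransferase gene whose product is recruited to Notch-bound genes, stood at 112 to 120 CPM in Kitl OE cells and 48.0 to 62.7 CPM in Egfp OE cells (1.04, adjusted p = 0.000687). With spike-in scaling the calls of Tle4 (adjusted p = 0.0732), Kat2b (0.0516) and Mib2 (0.136) ended, and that of Mib2 (0.0554) also ended with matched P numbers. Rbpj itself averaged 166 ± 2.57 CPM in Kitl OE cells and 186 ± 56.5 CPM in Egfp OE cells (SD, n = 3 each) and did not pass (log2 -0.17, adjusted p = 0.573).

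Weaker decreases were seen in Dtx4, a Deltex-family ubiquitin ligase gene, in Crebbp, a coactivator acetyltransferase gene, and in Hdac1, a histone deacetylase gene. Dtx4 had 21.6, 22.4 and 16.7 CPM in Kitl OE cells and 32.4, 42.1 and 39.0 CPM in Egfp OE cells (log2 -0.90, adjusted p = 0.0275, edgeR). That call ended in 9 of 24 alternatives. Among them were the fits without Egfp OE replicate 3 (-0.88) or any of Kitl OE replicates 1, 2 and 3 (-0.93, -0.97 and -0.75). Crebbp (-0.45, adjusted p = 0.0447, edgeR) lost its call in 17 of 24 alternatives, which took in all fits without 1 library except those without shKitl replicate 3, Egfp OE replicate 3 or Kitl OE replicate 1, and it was at -0.34 without Kitl OE replicate 2. Hdac1 (-0.34, adjusted p = 0.0466) lost its call in 20 of 24, which took in every fit without 1 library, and it was at -0.27 without Egfp OE replicate 2.

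**Figure D5:**
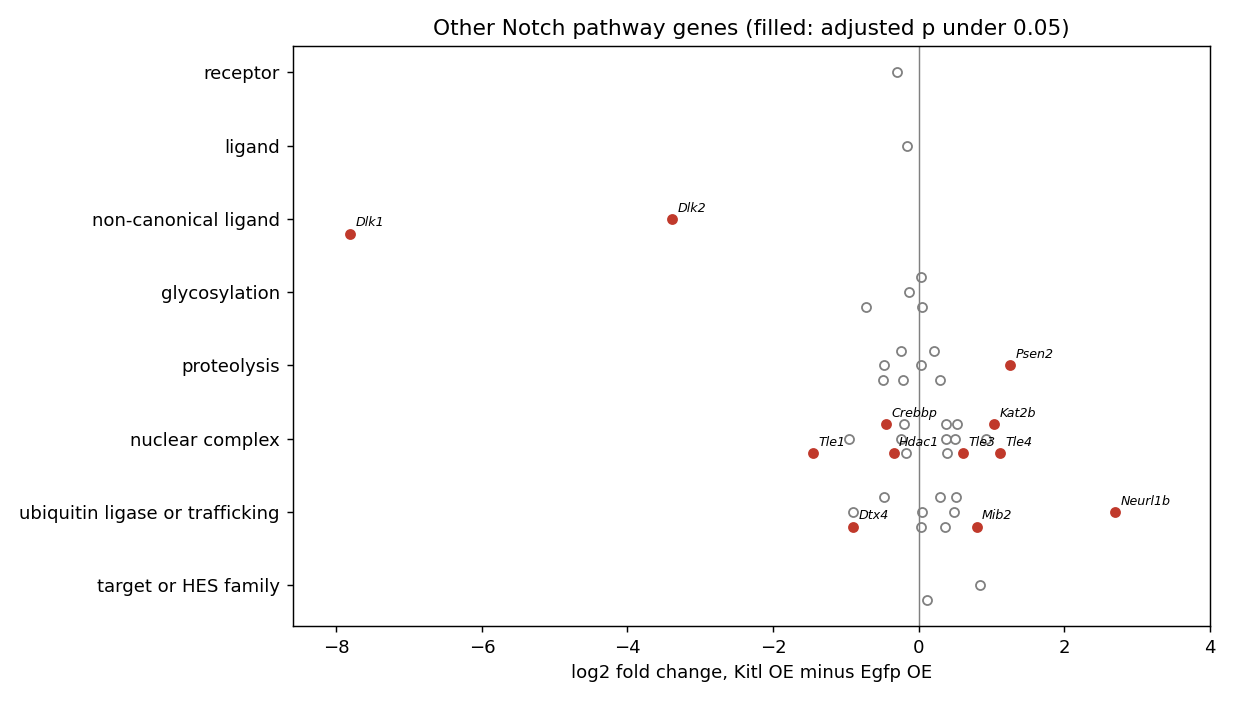
Log2 fold changes of tested genes of the wider pathway list in Kitl OE minus Egfp OE cells, in rows by role, with points spread within a row for legibility. Filled and named points passed an adjusted p of 0.05, with Dlk1 at -7.81 and Neurl1b at 2.70 at the ends.

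In the knockdown, 0 of the 46 passed in edgeR, and DESeq2 called 2. An unadjusted p under 0.05 was seen for 9 of the 46, beside 2417 of the 15271 genes in all. Dlk1 had 62.5, 75.1 and 74.6 CPM in shKitl cells and 161, 167 and 156 CPM in shCtrl cells, groups that did not overlap (log2 -1.19, SE 0.24, adjusted p = 0.134, edgeR). Dtx4 had 65.3, 144 and 68.8 CPM in shKitl cells and 46.2, 35.8 and 37.7 CPM in shCtrl cells, groups that did not overlap (log2 1.21, SE 0.28, adjusted p = 0.176, edgeR). Dtx4 was singled out after its values were seen, and it too was highest at P number 14 in both lines. The difference between the 2 effects passed for 5 of the 46: Neurl1b (2.62, adjusted p = 0.0473), Dlk1 (-6.62, 5.22e-06), Dlk2 (-2.39, 0.0384), Tle1 (-1.35, 0.00399) and Dtx4 (-2.11, 0.00536). Neurl1b lost the call in 12 of 23 alternatives, among them the fits without shCtrl replicate 1 (1.85), shKitl replicate 2 or 3 (2.52 and 2.34), Egfp OE replicate 2 or 3 (2.31 and 2.61) and Kitl OE replicate 1, 2 or 3 (2.59, 2.68 and 2.68). Dlk2 lost it in 13 of 23, among them every fit without 1 library except those without Egfp OE replicate 1, Egfp OE replicate 2 or Kitl OE replicate 3, at values of -2.63 to -2.02. Spike-in scaling ended the calls of Tle1 (adjusted p = 0.325) and Dtx4 (0.0593), and Tle1 also lost its call with matched P numbers (0.0733) and with limma (0.0575 and 0.0542). In Egfp OE against shCtrl cells 2 of the 46 passed, both higher: Dlk1 (1.58, adjusted p = 0.0247) and Tle1 (0.97, adjusted p = 0.0309). The call of Dlk1 ended in 7 of 23 alternatives, among them the fits without shCtrl replicate 2 (1.61), shCtrl replicate 3 (1.55) or Egfp OE replicate 3 (1.28). That of Tle1 ended in 12 of 23, among them the fits without any of these libraries (0.99, 0.89 and 0.82) and without Kitl OE replicate 1, 2 or 3 (0.97, 0.96 and 0.97).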

How the data were processed

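RNA-seq counts of 12 libraries, 3 per group, were used. Groups and replicate numbers came from the sample titles. The authors deposited raw read counts per gene, made with STAR 2.5.2b and featureCounts of Subread 1.5.2 on GRCm38 (mm10), per the submitters' processing notes, which also list DESeq2. The authors also deposited TPM values of the same libraries. Strand setting and annotation release of the counting were not given in the sources used here. Reads of a gene and of one that overlaps it therefore cannot be separated. The 92 ERCC spike-ins entered no test, and no library size except in the spike-in scaling, where their totals set the library sizes. Coordinates are those of GENCODE M21.

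Counts were fitted with edgeR 4.0.16 in R 4.3.3 (filterByExpr by group, TMM, robust quasi-likelihood, 1 coefficient per group over all 12 libraries, Benjamini-Hochberg over 15271 genes, threshold 0.05). The SE is the absolute log2 fold change over the square root of F. Depth was 24979742 to 33517686 counts per library. A floor of 3 counts stands for a count of 0, for counting error only. Alternatives were DESeq2 1.42.0, limma 3.58.1 on log2(TPM + 1) and log2(TPM + 0.1), other scalings and filters, a replicate block, a P number covariate, fits of 2 groups alone, and leaving out each library. Chosen after seeing the data was the fit on libraries whose P number occurs in both groups. The procedure was tested on simulated data.

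The 9 genes and all lists were chosen with earlier results of these data known. All 9 genes and Kitl were named, with up to 6 further list members past 0.05 per direction and comparison with the largest change, and Dlk1, Dlk2 and Nrarp always. Other list genes named without a call were chosen after their values were seen. Of the wider list, 1 gene is counted but not reported by itself here, nor drawn.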

Additional observations from a re-analysis of the deposited data

How the results depend on the processing

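Calls over all genes in Kitl OE against Egfp OE cells (5236) came to 2351 with spike-in scaling, 3005 with matched P numbers and 3502 to 6150 without 1 library. The 2 Notch calls there came to 1 with spike-ins, with a CPM of at least 5 in 3 libraries (Hey1 not tested) and with matched P numbers, and to 1 to 3 without 1 library. The 13 list calls came to 6 with spike-ins and 8 to 18 without 1 library. In shKitl against shCtrl cells the 0 calls over all genes came to 428 with DESeq2, 7 with limma on log2(TPM + 1), 23 with all genes of any count and 0 to 277 without 1 library, and the 0 list calls to 2, 0, 1 and 0 to 2. No alternative called a Notch gene there. The 2131 differing genes came to 919 with spike-ins, 1291 with limma on log2(TPM + 1), 1106 with matched P numbers and 1245 to 2842 without 1 library. For the Notch genes the 0 came to 1 with DESeq2, all genes of any count or matched P numbers, and 0 to 2 without 1 library. The 5 list genes came to 1 with spike-ins, 8 with DESeq2, 3 and 2 with limma at pseudocounts of 1 and 0.1, 3 with matched P numbers and 3 to 6 without 1 library. In Egfp OE against shCtrl cells the 191 calls came to 10 with spike-ins, 1460 with DESeq2, 104 with limma on log2(TPM + 0.1), 349 with all genes of any count, 0 with the P number or with these groups alone, and 0 to 771 without 1 library. The 0 Notch calls came to 1 with DESeq2 and all genes of any count and 0 to 1 without 1 library, and the 2 list calls to 0 with spike-ins, 6 with DESeq2, 1 and 0 with limma, 0 with the P number or these groups alone, and 0 to 3 without 1 library.

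Same-numbered libraries did not go together in both comparisons. Deviations of same-numbered libraries correlated at 0.0456, 0.309 and 0.254 in the overexpression and 0.133, -0.441 and 0.598 in the knockdown comparison. In the overexpression comparison each Kitl OE library correlated most with the Egfp OE library of its number, and other pairs ran from -0.285 to 0.163. In the knockdown, shKitl replicate 2 correlated most with shCtrl replicate 1, at 0.608. With the replicate block, counts were 5186, 2 and 13 for all genes, Notch genes and the list in the overexpression, 0, 0 and 0 in the knockdown, 2118, 0 and 5 for the difference, and 82, 0 and 1 between the controls. Libraries sharing a P number correlated at 0.608 for 14 and 0.515 for 15 in the hairpin lines, and at -0.0023 for 18 and -0.285 for 19 in the overexpression lines. The shKitl library of 15 correlated at 0.598 with the shCtrl library of 16.

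Some uncalled values changed sign. In shKitl against shCtrl, without 1 library Notch1 ran from -0.10 to 1.32, Notch2 from -0.18 to 0.27 and Hey1 from -0.89 to 0.048. Notch2 was -0.0083 there with spike-ins, Jag2 -0.47 and Hes1 -0.034 with matched P numbers. In Kitl OE against Egfp OE, Hes1 ran from -0.24 to 1.08 without 1 library. The difference for Hes1 was 0.33 with spike-ins, 0.11 with limma at either pseudocount, 0.0094 with the replicate block, 0.38 with the P number, 0.44 with matched P numbers and -0.69 to 0.65 without 1 library. In Egfp OE against shCtrl, spike-ins gave -0.087 for Notch1, -0.089 for Jag1 and -0.30 for Hey1, library totals 0.041 for Notch2, the P number 0.22 for Notch2 and 1.16 for Notch3, and the replicate block 0.11 for Notch3. Without 1 library there, Notch1 ran from -0.17 to 0.77, Notch2 from -0.25 to 0.27, Notch3 from -0.52 to 0.79 and Hey1 from -0.053 to 0.37. The causes were not tested. Spike-in scaling shifted the median of all genes by -0.40 between the controls, 0.18 in the difference and -0.11 in the knockdown, and library totals shifted the difference by -0.10. With spike-ins 0% of the calls between the controls were higher, beside 40.8%, and 17.6% of those of the difference, beside 29.2%.

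Jag2, Hey1 and Hey2, at up to 2.21 CPM, rest on 2 to 56 reads per library, and Heyl, with 1 read in all, is too low to compare at this depth.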

Other observations

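The genes whose levels followed each Notch gene most closely over the 12 libraries were listed by the root mean square difference of centred log2(CPM + 1) among 10234 genes with a mean of at least 5 CPM. Closest to Jag1 were Tspan2 (0.20), Sema3a (0.25) and Aif1l (0.30), beside a spread of Jag1 around its own mean of 1.02. Closest to Notch3 were Notch1 (0.43), Adamts7 (0.45) and Sned1 (0.47), beside a spread of 1.04. Notch1 was followed by Osmr, Cpt1a and Zfp608 (each 0.36, spread 0.78), Notch2 by Clip2, Arhgef12 and Pik3r4 (0.14 to 0.15, spread 0.37), and Hes1 by Grcc10, Tceal1 and Serf2 (0.28 to 0.31, spread 0.78). Jag2 was nearest to Tmem126b, Deaf1 and Zfp513, Hey1 to Slc30a6, Pdlim7 and Capzb, and Hey2 to Amd1, Ahsa1 and Prmt7, at 0.09 to 0.17, but at their levels the added 1 CPM sets most of the value. These are descriptions of 12 libraries that share lines and depth, with no test.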
